A study of Mus musculus with 21 samples.

Results

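The nuclear genes of oxidative phosphorylation were examined in cultured mouse natural killer (NK) cells that lacked Ikaros (encoded by Ikzf1), Aiolos (encoded by Ikzf3) or both of these zinc finger transcription factors. Members were chosen by name alone, with no measured value in the rule: protein-coding genes of the expression table whose symbols begin with Nduf and a, b, c, s or v, with Uqc, with Cox4 to Cox8 or with Atp5, together with Sdha, Sdhb, Sdhc and Sdhd. Of the 11736 genes in the table, 79 met this rule. They comprise 36 genes of complex I, 4 of complex II, 11 of complex III, 12 of complex IV and 16 of complex V. The names also bring in 7 assembly factors of complex I (the Ndufaf genes) and 3 of complex III (Uqcc1, Uqcc2 and Uqcc3), which help to build a complex without staying in it. Ndufa4, named for complex I, is counted with complex IV, where its protein is now placed. Atp5s, a relative that is no core subunit of the ATP synthase, is kept because it meets the rule.

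The groups were Cre only controls (4 libraries, S16 to S19), Ikzf1 KO (4 libraries, S12 to S15), Ikzf3 KO (4 libraries, S1 to S4) and DKO, in which Ikzf1 and Ikzf3 were both deleted (3 libraries, S5 to S7). The deletions were conditional in NK cells, and all cells were sorted from spleen and then kept in medium with IL-15 at 50 ng/ml. The driver of Cre, the strain and the age of the mice are not given in the sources used here. The 6 samples that were sorted without culture were not analysed here.

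Oxidative phosphorylation takes place in the inner membrane of mitochondria. Complex I (NADH dehydrogenase) and complex II (succinate dehydrogenase) feed electrons to ubiquinone, complex III passes them to cytochrome c, and complex IV (cytochrome c oxidase) hands them to oxygen. The protons that complexes I, III and IV pump out drive complex V, the ATP synthase. Most subunits are made from nuclear genes, whereas a few core subunits of every complex but complex II are made from mitochondrial DNA. NK cells that are stimulated with cytokines are known to raise their respiration.

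Depth recovered from the values ran from 8.61 to 21.2 megareads a library, and members held 1.09% to 1.58% of these reads. Ikzf1 stood at 61.9 ± 5.22 RPKM (SD, n = 4) in Cre only, 19.1 ± 0.662 (n = 4) in Ikzf1 KO and 30.3 ± 7.12 (n = 3) in DKO cells. Ikzf3 stood at 41.8 ± 3.68 RPKM (SD, n = 4) in Cre only, 17.8 ± 2.37 (n = 4) in Ikzf3 KO and 21.5 ± 1.96 (n = 3) in DKO cells. Of 12 NK cell markers, 11 were measured and none was at 0 in a whole group. Their summed RPKM was 19812 to 25039 in Cre only, 24136 to 27374 in Ikzf1 KO, 6981 to 19859 in Ikzf3 KO and 3852 to 9150 in DKO cells. Of the 11, 4 were lower in DKO than in Cre only cells, beside 10.6% of all genes, and none was higher, beside 8.06%. The 4 were Gzma, Gzmb, Prf1 and Nkg7, which serve killing. Ncr1, a receptor that defines NK cells, was not called (106 to 187 RPKM in Cre only, 184 to 235 in DKO). The summed RPKM of 6 T cell markers was 20.2 to 99.8 in Cre only, 24.4 to 67.3 in Ikzf1 KO, 31.1 to 62.2 in Ikzf3 KO and 197 to 458 in DKO cells. Markers of B cells (1 of 6 measured) summed to at most 2.23 RPKM in any library and those of myeloid cells (3 of 8) to at most 11.2, while no marker of red cell precursors was measured. In bulk RNA, fewer cells of a type and less RNA per cell cannot be told apart. Libraries of a group differed by more than sampling noise, most of all in Ikzf3 KO: the chi-square per degree of freedom between recovered reads was 9.49 for S1 and S2, 72.2 for S3 and S4, and 137 to 242 across these pairs. In Cre only it was 10.7 for S16 and S17, 24.3 for S18 and S19, and 41.4 to 78.5 across.

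The levels of the members spanned a wide range in control cells. RPKM corrects a read count for the length of the gene and the depth of the library, so comparisons between genes also rest on the length used. In Cre only the median member had a mean of 40.0 RPKM in complex I, 69.3 in complex II and 76.3 in complex III. It had 95.7 RPKM in complex IV and 106 in complex V. Over all 15 libraries the highest member of complex I was Ndufa2, a subunit of the matrix arm, at a mean of 211 RPKM, and the lowest was Ndufb2, of the membrane arm, at 2.58 RPKM. In complex II the small membrane anchors held both ends, with Sdhd at 161 and Sdhc at 50.6 RPKM. Complex III ran from Uqcrh, the hinge subunit next to cytochrome c1, at 238 RPKM to the assembly factor Uqcc1 at 5.86 RPKM. Complex IV ran from Cox8a at 585 RPKM, the highest of all members, to Cox6a2, the heart and muscle form of subunit 6a, at 1.53 RPKM. Complex V ran from Atp5b, the catalytic beta subunit, at 369 RPKM to Atp5l, subunit g, at 0.307 RPKM. Exonic length was 6443 bp for Atp5l and 5628 bp for Ndufb2, against a median of 1550 bp over the members. Atp5l had 13 to 61 reads a library, and 4.9% of its 75-base stretches also occur in other genes. Ndufb2 had 140 to 374 reads a library. The RPKM of Atp5l and Ndufb2 depends in part on the gene model and is uncertain as a level, and the part of length in their low values was not tested. Atp5l was the 1 member that missed the filter (RPKM of at least 1 in at least 3 libraries), so 78 members were tested.

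**Figure D1:**
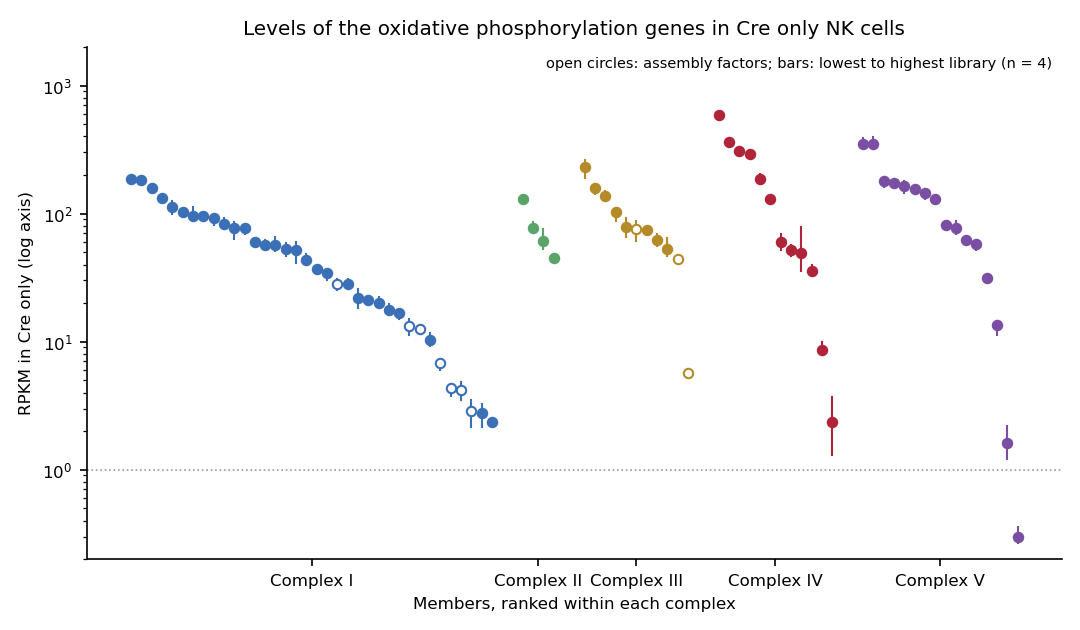
Mean RPKM of each of the 79 members in the 4 Cre only libraries, on a log axis, ranked within complexes I to V; bars run from the lowest to the highest library, open circles are assembly factors, and the dotted line marks 1 RPKM. Cox8a is the highest point and Atp5l the lowest, and the 7 assembly factors of complex I together sum to 72.1 RPKM.

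Where a subunit has several gene forms, NK cells used mainly the widely expressed one. Cox6a1 stood at 309 ± 16.7 RPKM in Cre only cells (SD, n = 4), against 2.35 ± 1.23 for its heart and muscle form Cox6a2. Cox7a2 stood at 186 ± 14.2 RPKM and its heart and muscle form Cox7a1 at 8.67 ± 0.958 (SD, n = 4 each). Subunit c of the ATP synthase, which forms the rotating ring, comes from 3 genes that encode the same mature protein. Atp5g3 led them in Cre only cells at 179 ± 14.8 RPKM, before Atp5g2 at 31.5 ± 1.35 and Atp5g1 at 13.4 ± 1.51 (SD, n = 4 each). Of the 75-base stretches of Atp5g2, 35.8% also occur in other genes, and of those of Atp5g1 7.2%, so both levels are uncertain. Exonic length also differed, with 4912 bp for Atp5g1, 1675 bp for Atp5g2 and 2181 bp for Atp5g3.

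Libraries of a group lay closest together in Cre only and Ikzf1 KO cells. The median SD of log2(RPKM + 0.5) over the members was 0.11 in Cre only, 0.10 in Ikzf1 KO, 0.34 in Ikzf3 KO and 0.20 in DKO cells, beside 0.17, 0.12, 0.36 and 0.21 over all genes tested. The main tests below used 1 estimate of the spread for all groups. Their counts of calls can therefore not be compared between genotypes. The widest range within 1 group was that of Cox6a2 in Ikzf3 KO, at 3.25 on the log2 scale. Ndufaf4, an assembly factor of complex I, came next there with 5.80 RPKM in S1, 5.81 in S2, 0.570 in S3 and 1.29 in S4. Ndufaf4 was thus low in S3 and S4 alone, the libraries that stand apart.

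Sums over the members of a complex differed by modest amounts between the groups. Complex I summed to 2004 ± 76.3 RPKM in Cre only (SD, n = 4), 2189 ± 68.0 in Ikzf1 KO (n = 4), 2319 ± 459 in Ikzf3 KO (n = 4) and 2302 ± 204 in DKO cells (n = 3). For complex V the same sums were 1974 ± 84.7, 2120 ± 55.1, 2150 ± 323 and 2252 ± 287 RPKM. These sums are led by the abundant subunits, and their spread was largest in Ikzf3 KO, where complex I ran from 1912 RPKM in S1 to 2969 in S4. Complexes II, III and IV had means of 312, 1023 and 2076 RPKM in Cre only and 372, 1159 and 2246 RPKM in DKO cells. The lowest DKO library lay inside the Cre only range for complexes III, IV and V, and DKO did not overlap Cre only for complex I, with 1892 to 2064 against 2124 to 2524 RPKM. Every Ikzf1 KO library was also above the controls for complexes I and II, with sums of 2127 to 2254 and 351 to 363 RPKM. For complex II the lowest DKO and the highest Cre only library both stood at 348 RPKM.

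Loss of Ikaros alone was compared with Cre only to ask how Ikzf1 bears on these genes. None of the 78 members passed the test in Ikzf1 KO cells (limma on log2(RPKM + 0.5), Benjamini-Hochberg adjusted p below 0.05 over 10032 genes), where 6.32% of all genes did, 3.54% higher and 2.78% lower. At an unadjusted p below 0.05 there were 4 members, all higher (Ndufaf2, Ndufb6, Ndufb8 and Ndufv1), beside 19.7% of all genes. The smallest adjusted p was that of Ndufaf2, with a log2 fold change of 0.48 ± 0.18 (SE) and an adjusted p of 0.138. Member values lay slightly above zero, with a median log2 fold change of 0.14 and 65 of 78 members positive, while the median over all genes was -0.01. In 14 members the lowest Ikzf1 KO library was above the highest control, and in 2 the reverse, beside 11.6% and 13.2% of all genes. Complex medians ran from 0.11 in complexes III and IV to 0.17 in complex II. Other weights gave other counts here: with array weights 22 members were called (19 higher, 3 lower), beside 37.3% of all genes, and with the Ikzf1 KO and Cre only libraries alone in the fit 8 (7 higher, 1 lower), beside 20% of all genes.

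Loss of Aiolos alone gave 4 calls among 78 members. Ndufaf6, Cox7c and Cox7a2 were higher and Ndufa10 was lower in Ikzf3 KO cells, beside 14.2% of all genes (6.3% higher and 7.88% lower). Ndufaf6, an assembly factor of complex I on chromosome 4, stood at 6.68, 7.84, 6.75 and 11.7 RPKM in S1 to S4 and at 4.65, 4.40, 3.79 and 4.56 in S16 to S19. All 4 Ikzf3 KO libraries were above all controls, and the log2 fold change was 0.82 ± 0.23 (SE, limma adjusted p = 0.0321). Cox7c, a small subunit of complex IV on chromosome 13, stood at 70.6, 84.5, 103 and 183 RPKM in Ikzf3 KO and at 68.7, 64.3, 56.5 and 52.0 in Cre only. Library S4 was far above the rest, and the log2 fold change was 0.78 ± 0.23 (SE, limma adjusted p = 0.0408). Of the 75-base stretches of Cox7c, 19.6% also occur in other genes.

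Cox7a2, on chromosome 9, had 216, 272, 260 and 454 RPKM in Ikzf3 KO against 202, 194, 171 and 178 in Cre only, with no overlap and S4 again the highest. Its log2 fold change was 0.63 ± 0.19 (SE, limma adjusted p = 0.0398). Ndufa10, a membrane arm subunit of complex I on chromosome 1, had 50.9, 57.4, 39.5 and 37.5 RPKM in Ikzf3 KO against 61.0, 60.4, 60.6 and 59.5 in Cre only. All 4 Ikzf3 KO libraries were below the controls, which lay close together, and the log2 fold change was -0.40 ± 0.13 (SE, limma adjusted p = 0.0482). Over all members the median log2 fold change was 0.18, with 54 of 78 positive. The groups did not overlap for 7 members that were higher and 1 that was lower, beside 7.68% and 10.5% of all genes. These 4 calls rest on few libraries. None of the 78 members was called without S4, S16, S17, S18 or S19, beside 8.22% (S4) to 10.3% (S19) of all genes. Without S1 20 were called, beside 29.9%. Without S3 and S4 together the 2 called members were Cox6a2 and Uqcc3, both lower, beside 9.7%. The Ndufaf6 call was lost under 8 of 28 alternatives.

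Gene length moved with these values. Members are short, with a median exonic length of 1550 bp against 4124 bp over all genes tested. The median difference of members from the Cre only mean was -0.04 in S1, 0.22 in S2, 0.04 in S3 and 0.53 in S4 on the log2 scale. All 701 genes under 1000 bp had medians of -0.01, 0.14, 0.29 and 0.67 in the same libraries, so the library with the highest members was also the one in which short genes of every kind stood highest. With the trend on length removed from each library, the median of the members in S4 was 0.21, and in the DKO libraries S5, S6 and S7 it was 0.09, 0.31 and 0.18, beside 0.09, 0.41 and 0.21 before. With this trend removed, 7 members were called in Ikzf3 KO (6 higher, 1 lower) and 10 in DKO against Cre only (7 higher, 3 lower), beside 15% and 19.9% of all genes. The part of length in single calls was not tested beyond this.

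**Figure D2:**
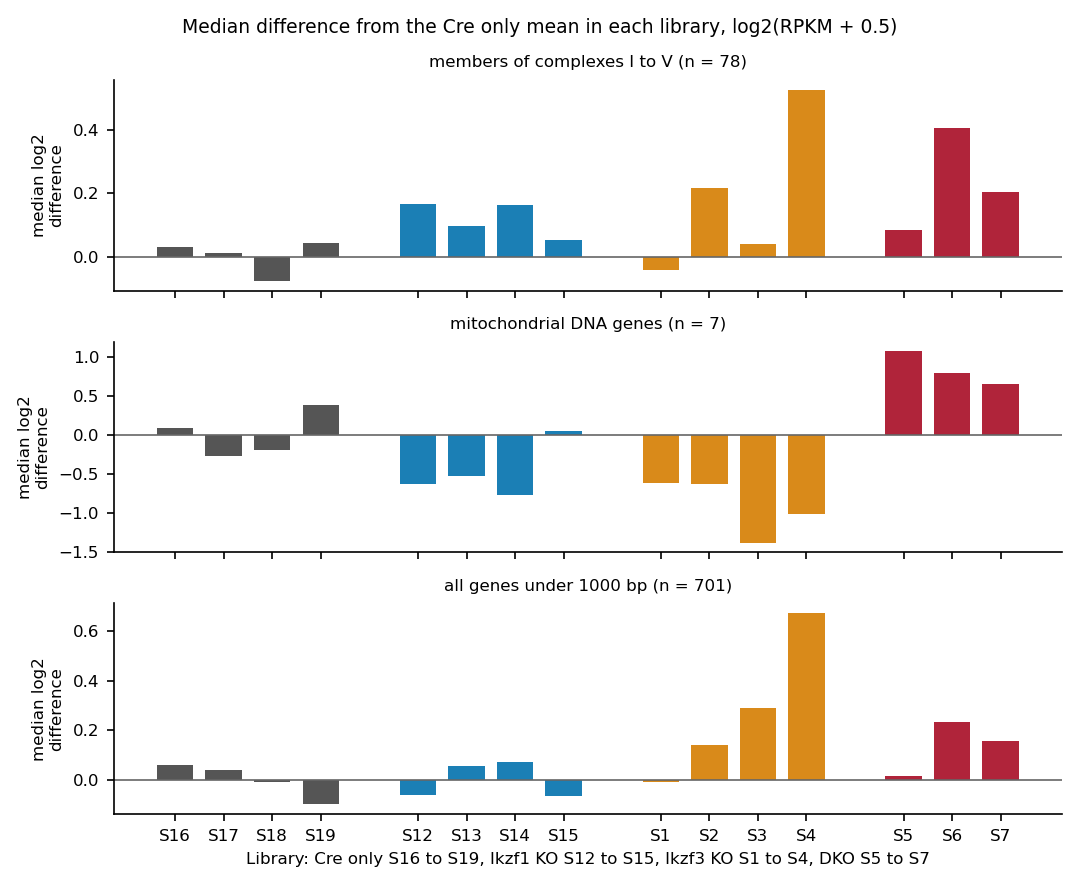
Median difference from the Cre only mean on the log2(RPKM + 0.5) scale in each of the 15 libraries, for the 78 tested members, the 7 measured mitochondrial DNA genes and the 701 tested genes under 1000 bp; bars are coloured by group. Members and short genes are both highest in S4, while the mitochondrial DNA genes are above the control mean in S5, S6 and S7 and below it in S1 to S4.

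Loss of both factors gave 5 calls among 78 members against Cre only. Ndufa4, Ndufaf2 and Uqcrb were higher, and Cox6a2 and Cox7a1 were lower, beside 18.7% of all genes (8.06% higher and 10.6% lower). Ndufa4, Cox6a2 and Cox7a1 are among 12 tested members of complex IV, Ndufaf2 among 36 of complex I and Uqcrb among 11 of complex III. None of the 4 members of complex II or the 15 tested of complex V was called. Sdhd of complex II and Atp5d of complex V were called with the length trend removed, beside 19.9% of all genes. Counts this small cannot rank the complexes. At an unadjusted p below 0.05 there were 18 members, 15 higher and 3 lower, beside 14.7% and 17.3% of all genes.

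Ndufa4 encodes a subunit of complex IV that binds at the edge of the enzyme, and it lies on chromosome 6 from 11900292 to 11907497 (GRCm38, minus strand). It stood at 117, 180 and 135 RPKM in S5, S6 and S7, the DKO libraries. The controls had 39.3, 35.9, 43.6 and 78.6 RPKM, Ikzf1 KO cells 52.6, 58.2, 58.8 and 76.6, and Ikzf3 KO cells 43.9, 54.7, 33.6 and 75.8. Every DKO library was thus above all 12 others. The log2 fold change was 1.58 ± 0.29 (SE) against Cre only (limma adjusted p = 0.00162), 1.21 ± 0.29 against Ikzf1 KO (adjusted p = 0.0188) and 1.50 ± 0.29 against Ikzf3 KO (adjusted p = 0.00223). The rise against Cre only passed the test under all 28 alternatives, with adjusted p from 0.0001045 to 0.0298, and none of its 75-base stretches occurs in another gene. In the single deletions the log2 fold change was 0.37 ± 0.27 for Ikzf1 KO (adjusted p = 0.514) and 0.08 ± 0.27 for Ikzf3 KO (adjusted p = 0.842), and the departure of DKO from the sum of both was 1.12 ± 0.39 (adjusted p = 0.111).

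A related gene outside the members, AA467197, moved the other way. It is the mouse counterpart of human C15orf48 (NMES1), whose protein is known to take the place of NDUFA4 in complex IV, and it was named here after its values were seen. AA467197 stood at 18.6, 12.6 and 10.1 RPKM in DKO, at 45.9, 45.7, 31.4 and 21.6 in Cre only, at 17.6 to 23.9 in Ikzf1 KO and at 60.9, 61.1, 29.8 and 28.5 in Ikzf3 KO. All DKO libraries were below all controls, and the log2 fold change was -1.34 ± 0.32 (SE, limma adjusted p = 0.01).

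Ndufaf2, a chaperone of late complex I assembly, lies on chromosome 13 from 108002715 to 108158623. It was weakly expressed, with 6.24, 7.36 and 5.14 RPKM in DKO against 2.95, 2.85, 2.14 and 3.49 in Cre only. Ikzf1 KO libraries had 3.96, 4.74, 4.45 and 3.49 RPKM and Ikzf3 KO libraries 3.53, 4.66, 2.51 and 3.51. All 3 DKO libraries were above all 12 others, while both single deletions reached into the range of the controls. The log2 fold change against Cre only was 1.01 ± 0.19 (SE, limma adjusted p = 0.00238, and 0.000397 to 0.0202 over 28 alternatives, all of which kept the call). Against Ikzf3 KO it was 0.75 ± 0.19 (adjusted p = 0.0142), a call that was lost without S6, without S3 and S4, and with these groups alone in the fit. An exon of B230220B15Rik overlaps Ndufaf2 on the opposite strand, and whether reads were counted by strand is not given in the sources used here.

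Uqcrb, a small subunit of complex III that lines the ubiquinone pocket, also lies on chromosome 13, from 66900617 to 66905378. It stood at 94.9, 138 and 124 RPKM in DKO and at 92.5, 82.2, 65.2 and 74.6 in Cre only. All DKO libraries were above all controls, with S5 only just so, and the log2 fold change was 0.59 ± 0.17 (SE, limma adjusted p = 0.0252). Its call was lost without S6, S7, S18 or S19 and without the last pair together (highest adjusted p 0.191). Of its 75-base stretches, 16.7% occur in other genes, and Gm10767 overlaps it on the opposite strand.

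The members that fell are the heart and muscle forms of complex IV subunits. Cox7a1, on chromosome 7 from 30184144 to 30186078, stood at 2.51, 2.66 and 6.64 RPKM in DKO and at 8.14, 10.0, 8.61 and 7.89 in Cre only. Ikzf1 KO libraries had a mean of 11.0 ± 1.51 RPKM (SD, n = 4) with S15 lowest at 8.81, and Ikzf3 KO libraries had 7.55, 11.5, 22.0 and 27.9. Every DKO library was below all 12 others. The log2 fold change was -1.16 ± 0.37 (SE) against Cre only (limma adjusted p = 0.0433), -1.49 ± 0.37 against Ikzf1 KO (adjusted p = 0.0248) and -1.95 ± 0.37 against Ikzf3 KO (adjusted p = 0.00222). The last was lost with these groups alone in the fit (adjusted p = 0.0531). The first of these ended under 13 of 28 alternatives (highest adjusted p 0.186, without S6), among them each omission of S5, S6 or any Ikzf1 KO or Cre only library and a pseudocount of 1. Cox7a1 was also the 1 member whose DKO value departed from the sum of the single deletions, by -2.28 ± 0.51 on the log2 scale (adjusted p = 0.0159), and this departure was -1.60 without S3 and S4 (adjusted p = 0.0234). It missed the threshold without S6 (adjusted p = 0.0545) and without S18 and S19 (adjusted p = 0.0537).

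Cox6a2 was near the limit of detection. It stood at 0.395, 0.216 and 0 RPKM in DKO, which is 4, 3 and 0 reads, and at 1.32, 1.30, 3.71 and 3.06 RPKM in Cre only, which is 13, 13, 34 and 34 reads. DKO was below all controls but not below Ikzf3 KO, where S1 had 0.124 and S4 5.45 RPKM. The log2 fold change was -1.95 ± 0.62 (SE, limma adjusted p = 0.0412) on a scale with 0.5 added, which sets the size of such a value, and it was -1.41 with 1 added (adjusted p = 0.0556). This call was also lost without S5, S6, S7, S12, S13, S14, S17, S18 or S19, under 13 of 27 alternatives in all. The gene overlaps Itgad on the opposite strand. The abundant forms did not pass the test in the same comparison, with a log2 fold change of 0.21 ± 0.20 for Cox7a2 (adjusted p = 0.514) and 0.09 ± 0.13 for Cox6a1 (adjusted p = 0.683).

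**Figure D3:**
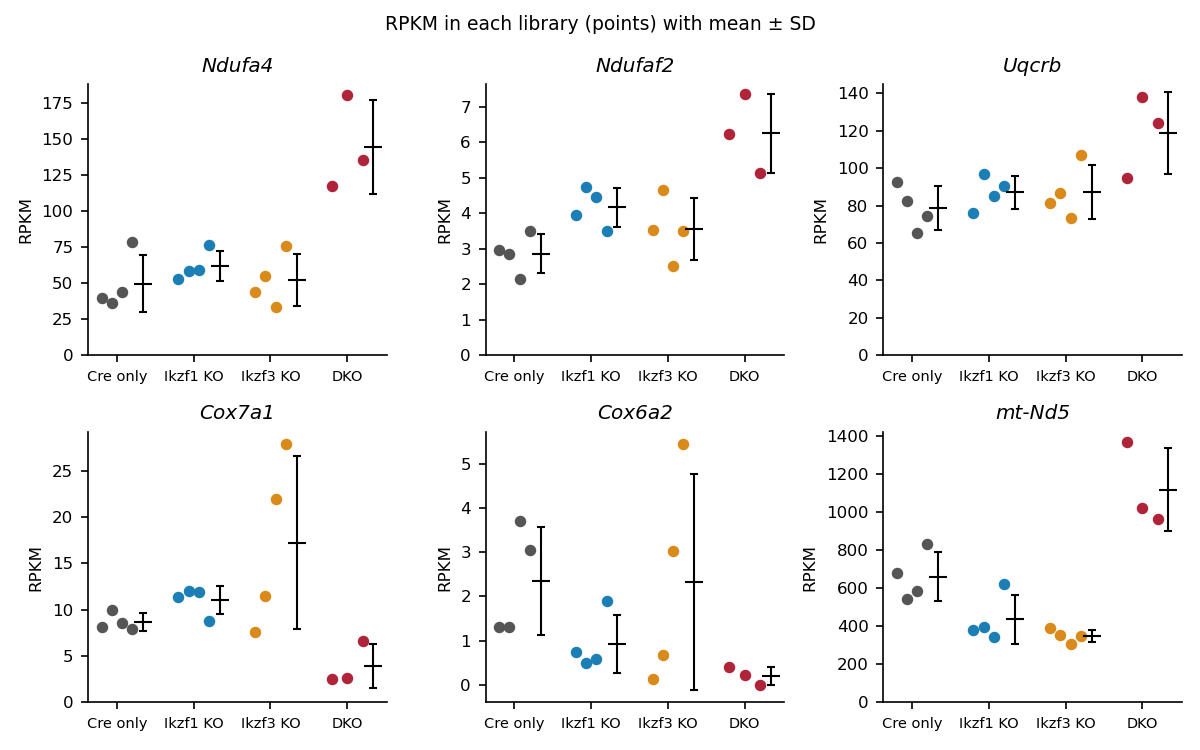
RPKM of Ndufa4, Ndufaf2, Uqcrb, Cox7a1, Cox6a2 and the mitochondrial DNA gene mt-Nd5 in each library (points) with the mean ± SD of each group to the right (n = 4, 4, 4 and 3). The 3 DKO points lie above all others for Ndufa4, Ndufaf2 and mt-Nd5 and below all others for Cox7a1.

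Many members that did not pass the test lay slightly higher in DKO cells. The median log2 fold change over all members was 0.23, with 68 of 78 positive, beside a median of 0.00 over all genes. It was 0.28 in complex I, 0.14 in complex II, 0.20 in complex III, 0.12 in complex IV and 0.26 in complex V. In 32 members the lowest DKO library was above the highest control, and in 6 the highest DKO library was below the lowest control, beside 16.1% and 19% of all genes. The DKO libraries did not sit equally high, since the median of the members was 0.09 in S5, 0.41 in S6 and 0.21 in S7. Without S3 and S4, which are in neither group of this comparison, 29 members were called (24 higher, 5 lower), beside 36.9% of all genes. Without S6 only Ndufa4 and Ndufaf2 were called, beside 9.8% of all genes, and without S18 the count was also 2, beside 12.8%.

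The catalytic core of the complexes showed small values in DKO cells. Ndufv1, which takes electrons from NADH, had a log2 fold change of 0.28 ± 0.14 against Cre only (SE, limma adjusted p = 0.167), and Ndufs1, which carries them on through iron-sulfur clusters, had 0.30 ± 0.15 (adjusted p = 0.199). Sdha and Sdhb, the flavin and iron-sulfur subunits of complex II, had 0.07 ± 0.14 and 0.06 ± 0.17 (adjusted p = 0.754 and 0.835). Uqcrc1, a core protein of complex III, had 0.13 ± 0.13 and the Rieske iron-sulfur subunit Uqcrfs1 0.11 ± 0.21 (adjusted p = 0.523 and 0.754). Cox4i1 and Cox5a of complex IV had 0.01 ± 0.20 and 0.04 ± 0.14 (adjusted p = 0.991 and 0.888). Atp5a1 and Atp5b, which form the catalytic head of complex V, had 0.30 ± 0.15 and 0.16 ± 0.17 (adjusted p = 0.174 and 0.552). None of these subunits passed the main test against Cre only in any of the genotypes. Under alternatives, Ndufv1, Ndufs1 and Atp5a1 were called in DKO cells with array weights (30.5% of all genes) and without S3 and S4 (36.9%). Ndufv1, Uqcrc1 and Atp5b were called in Ikzf1 KO cells with array weights (37.3%). Ndufv1 was also called there without S3 and S4 (17.2%) and with Ikzf1 KO and Cre only alone in the fit (20%). A p that misses the threshold does not show that the groups are equal.

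**Figure D4:**
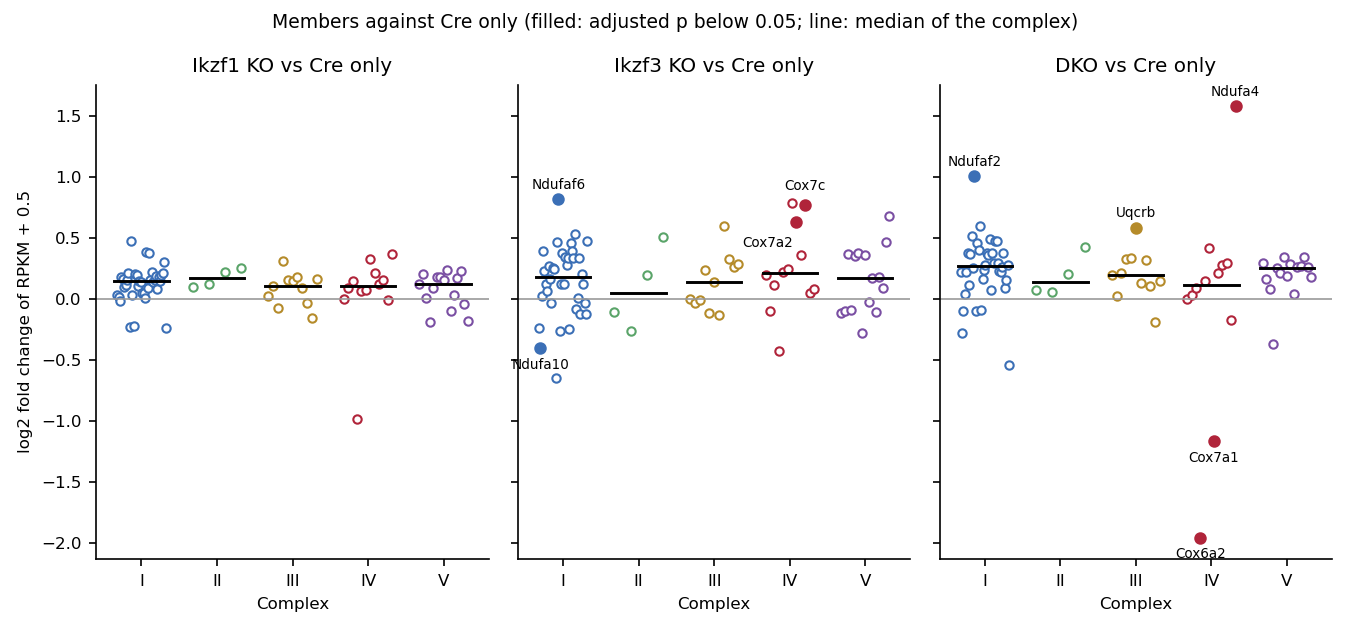
Log2 fold change of RPKM + 0.5 against Cre only for the 78 tested members by complex, in Ikzf1 KO, Ikzf3 KO and DKO cells; filled points have an adjusted p below 0.05 and black lines are complex medians. Most points lie within 0.5 of zero, and the widest are Ndufa4 at 1.58 and Cox6a2 at -1.95 in DKO cells.

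The comparison of DKO with each single deletion asks what the loss of the other factor adds. Against Ikzf1 KO, Ndufa4 and Ndufaf1 were higher and Cox7a1 lower, beside 7.48% of all genes (3.76% higher and 3.72% lower). Ndufaf1, an early assembly factor of complex I, stood at 15.4, 16.4 and 13.5 RPKM in DKO and at 10.0, 10.8, 10.9 and 11.0 in Ikzf1 KO. The groups did not overlap, and the log2 fold change was 0.48 ± 0.12 (SE, limma adjusted p = 0.0288). All 3 of these calls were lost without S6, S12, S13 or S14.

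Against Ikzf3 KO, Ndufa4, Ndufaf2 and Ndufv1 were higher and Cox7a1 and Ndufv3 lower, beside 20.1% of all genes (10.2% higher and 9.85% lower). Ndufv3, a small subunit at the tip of complex I, stood at 32.4, 34.6 and 42.7 RPKM in DKO and at 43.6, 49.7, 107 and 129 in S1 to S4. The high values were those of S3 and S4, and the log2 fold change of -1.02 ± 0.29 (SE, limma adjusted p = 0.0262) was -0.35 without them (adjusted p = 0.0704). The call was also lost without S3, S4, S5 or S6, with array weights and with these groups alone in the fit. Ndufv1 stood at 54.1, 53.2 and 50.0 RPKM in DKO and at 41.9, 49.7, 36.8 and 31.6 in Ikzf3 KO. Its log2 fold change was 0.40 ± 0.14 (SE, limma adjusted p = 0.0499), and it missed the threshold under 22 of 28 alternatives. Of the 78 members only Cox7a1 departed from the sum of the single deletions, beside 6.55% of all genes (3.63% higher and 2.92% lower). Comparisons that share DKO or Cre only libraries are not independent of each other.

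Set against all 12 other libraries, the DKO cells stood apart for 5 members. Ndufa1, Ndufa4 and Ndufaf2 were higher in every DKO library than in any other, beside 4.34% of all genes, and Cox7a1 and Ndufv3 were lower, beside 4.27%. The T cell markers were highest in the same 3 libraries. The summed markers of type 1 innate lymphoid cells were 502 to 702 RPKM in DKO and 439 to 508 in Ikzf1 KO, so these groups overlapped. They were 127 to 379 RPKM in Cre only and 44.5 to 131 in Ikzf3 KO. The part of these marker sets in the values of the members was not tested.

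Promoters are shown for Ndufa4, Ndufaf2 and Cox7a1, which were called in DKO cells against Cre only and have an entry in RefSeq. Uqcrb, also called there, had no entry, and Cox6a2 and the members called in Ikzf3 KO cells are not shown. RefSeq (GRCm38.p6) gave 67 promoters, from 250 bases before to 50 after a start, for 63 of the 79 members. They were searched on both strands for the core of the NRF-1 site (CGCATGCG), the GABP or ETS site (CCGGAAGT), the YY1 site (AAGATGGC) and the Ikaros site (TGGGAA), of which the GABP and Ikaros letters share GGAA. NRF-1, GABP and YY1 are known regulators of respiratory genes. The NRF-1 letters were in 14.9% of the member promoters and in 1.9% of all 32851 promoters, the YY1 letters in 14.9% and 2.7%, and the GABP letters in 7.5% and 3.9%. The Ikaros letters were in 25.4% of member promoters and 25.6% of all. The promoters of Ndufa4, Ndufaf2 and Cox7a1 held none of the 4 motifs in this window, which was also so for 47.8% of the member promoters and 68.2% of all promoters. The promoter of Cox7c, called in Ikzf3 KO cells and not shown, held the Ikaros letters. The promoters of Ndufa4, Ndufaf2 and Cox7a1 are printed in lower case, 5′ to 3′ on the strand of the gene. Bases inside the annotated model of the same gene were left out, but bases of other genes were not. They lie at chr6:11907498-11907700 (minus strand), chr13:108158626-108158875 (minus strand) and chr7:30183921-30184143 (plus strand).
Ndufa4: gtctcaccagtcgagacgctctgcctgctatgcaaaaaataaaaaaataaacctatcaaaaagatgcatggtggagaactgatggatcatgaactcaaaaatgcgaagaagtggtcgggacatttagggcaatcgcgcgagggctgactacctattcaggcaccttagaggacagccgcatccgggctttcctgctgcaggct
Ndufaf2: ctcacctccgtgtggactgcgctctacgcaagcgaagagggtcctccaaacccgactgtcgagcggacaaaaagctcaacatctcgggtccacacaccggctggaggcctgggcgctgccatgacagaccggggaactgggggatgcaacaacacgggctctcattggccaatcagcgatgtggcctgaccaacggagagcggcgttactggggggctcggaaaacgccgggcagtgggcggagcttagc
Cox7a1: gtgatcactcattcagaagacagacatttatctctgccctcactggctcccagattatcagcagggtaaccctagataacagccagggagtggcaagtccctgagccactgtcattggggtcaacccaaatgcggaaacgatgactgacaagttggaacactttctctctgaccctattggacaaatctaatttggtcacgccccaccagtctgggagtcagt
For comparison, the promoters of Cox6a1, the abundant partner of Cox6a2, at chr5:115348982-115349208 (minus strand) and of the assembly factor Ndufaf4 at chr4:24897833-24898082 (plus strand) each hold the NRF-1 letters, given in capitals.
Cox6a1: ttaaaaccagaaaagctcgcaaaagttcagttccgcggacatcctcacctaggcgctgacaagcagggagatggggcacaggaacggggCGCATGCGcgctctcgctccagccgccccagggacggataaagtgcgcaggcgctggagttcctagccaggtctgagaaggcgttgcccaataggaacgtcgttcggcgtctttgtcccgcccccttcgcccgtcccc
Ndufaf4: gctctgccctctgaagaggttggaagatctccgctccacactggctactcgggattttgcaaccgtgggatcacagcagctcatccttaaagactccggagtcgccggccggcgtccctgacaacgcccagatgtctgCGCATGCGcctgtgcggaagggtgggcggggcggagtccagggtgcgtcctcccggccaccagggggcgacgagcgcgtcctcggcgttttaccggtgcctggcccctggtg
All 5 were chosen for display with their values known, so they show no relation between motifs and calls. A match is a description of letters and not of binding.

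The subunits encoded by mitochondrial DNA took another course than the nuclear members. Of 13 such genes, 7 were measured: 5 of complex I (mt-Nd1, mt-Nd2, mt-Nd4, mt-Nd5 and mt-Nd6), mt-Cytb of complex III and mt-Co1, the catalytic subunit of complex IV. In DKO cells mt-Nd1, mt-Nd5 and mt-Nd6 were higher than in Cre only, beside 8.06% of all genes, and the other 4 were not called. All 7 lay above all controls, beside 16.1% of all genes, with a median log2 fold change of 0.88. mt-Nd5 stood at 1370, 1022 and 965 RPKM in DKO, at 682, 543, 585 and 834 in Cre only, at 381, 398, 343 and 624 in Ikzf1 KO and at 389, 353, 307 and 350 in Ikzf3 KO. Its log2 fold change against Cre only was 0.76 ± 0.21 (SE, limma adjusted p = 0.0225), a call that was lost without S5, S6, S17 or S18. In Ikzf3 KO cells 5 of the 7 were lower, beside 7.88% of all genes, and mt-Nd1 and mt-Co1 were not called. In Ikzf1 KO cells none was called and the median was -0.47.

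The departure of DKO from the sum of the single deletions was called higher for 6 of these 7 genes, beside 3.63% of all genes. Its median over the 7 was 2.39 on the log2 scale, while the median of the nuclear members was -0.08. For mt-Nd5 it was 2.28 ± 0.29 (SE, limma adjusted p = 0.00063, and 0.000146 to 0.00423 over 27 alternatives). The gene not called was mt-Co1, which had 1844, 1831, 3999 and 5203 RPKM in S1 to S4. It was high in S3 and S4, where the other 6 summed to 1782 and 2181 RPKM, against 3841 and 3774 in S1 and S2. Libraries were made from polyadenylated RNA, and mt-Nd6 lies on the other strand than its neighbours, and whether reads were counted by strand is not given. In the plot of library medians the nuclear members lie within 0.53 of the control mean, and the mitochondrial genes from -1.39 in S3 to 1.08 in S5.

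Other nuclear genes that serve the complexes were counted from lists. Of 35 tested assembly factors outside the members, Nubpl, Cmc2 and Bcs1l were higher in Ikzf3 KO cells, beside 6.3% of all genes. In both Ikzf1 KO and DKO cells Cmc2 was higher and Coa5 lower than in Cre only. Of all genes 3.54% were higher and 2.78% lower in Ikzf1 KO, and 8.06% and 10.6% in DKO cells. The calls of Coa5 in DKO and of Bcs1l in Ikzf3 KO were each lost under 18 of 28 alternatives, and that of Cmc2 in DKO under 8. Nubpl, which inserts iron-sulfur clusters into complex I, stood at 2.57, 2.60, 3.72 and 3.44 RPKM in Ikzf3 KO against 1.44, 1.36, 1.65 and 1.21 in Cre only, with a log2 fold change of 0.89 ± 0.15 (SE, limma adjusted p = 0.00166). Of 74 tested genes of the mitochondrial ribosome, which makes the mitochondrially encoded subunits, 9 were higher in Ikzf3 KO and 7 in DKO cells, and none was lower in either, beside 6.3% and 8.06% of all genes that were higher, which also serve as the background for the lists that follow. Of 22 electron carriers and transporters 2 were higher in Ikzf3 KO and 3 in DKO cells, and of 21 genes of mitochondrial import 1 and 3 were. Of 18 genes of the tricarboxylic acid cycle, 1 was higher in Ikzf1 KO (beside 3.54% of all genes), 2 in Ikzf3 KO and 5 in DKO cells, and none was lower. Idh2, a mitochondrial isocitrate dehydrogenase, was among them in all 3 genotypes, at 4.84 ± 0.599 RPKM in Cre only, 15.3 ± 1.46 in Ikzf1 KO, 8.12 ± 0.509 in Ikzf3 KO (SD, n = 4 each) and 19.5 ± 1.85 in DKO (n = 3). Of 15 tested regulators, Esrra, Gabpa and Hif1a were lower in DKO cells, beside 10.6% of all genes. Ppargc1a was higher in Ikzf1 KO cells, beside 3.54% of all genes. Esrra and Gabpa encode activators of respiratory genes, with log2 fold changes of -0.37 and -0.38 (limma adjusted p = 0.0328 and 0.0388), and both calls were lost without S6, S7, S16 or S18.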

How the data were processed

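Poly(A) RNA of cultured NK cells was sequenced in 15 libraries. The deposited values are RPKM per gene, made by the authors. STAR, featureCounts, limma 3.34.9 and the mm10 build appear in the submitters' processing notes. The labels speak of biological replicates without naming animals, so p-values measure the spread between these samples. Columns were tied to groups by genotype and group size.

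Of 11736 genes, the 10032 that reached 1 RPKM in 3 or more libraries were tested as log2(RPKM + 0.5) with limma 3.58.1 in R 4.3.3, with trend and robust moderation, over 15 libraries with 4 group means and 11 residual degrees of freedom. All groups shared 1 estimate of the spread for each gene. The log2(RPKM + 0.5) scale understates the change of low genes. P-values were adjusted over all genes with the Benjamini-Hochberg method, at a threshold of 0.05. The departure of DKO from the sum of both single deletions was an interaction term. RPKM steps gave whole reads within 0.02 reads for 96.2% of genes, which gave depths. The fit was tested on simulated data. Descriptions used Python 3.11.15, pandas 2.3.3, numpy 2.4.6 and matplotlib 3.10.9. Exonic lengths were matched for 11732 genes.

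Members and lists were chosen with earlier results of these data known. Named members were those called with the smallest adjusted p in each comparison, the catalytic subunits, subunits with several gene forms, the highest and lowest of each complex and the widest in range, and up to 4 called genes of each related list. One of the catalytic subunits is not reported here. Alternatives changed the pseudocount, filter, scaling, weights, moderation, libraries fitted and, chosen after seeing the data, a trend on gene length.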

Additional observations from a re-analysis of the deposited data

Results flagged for a closer look

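Over 54 groups of 4 libraries (36 of members, 18 of summed levels), 3 held 1 library far from the other 3. Chance flags about 1 in 20 groups (5%). The summed level of the mitochondrial DNA genes in Ikzf3 KO cells was 7383 RPKM in S4, against 5604 to 5781 in S1 to S3. Ndufaf1 stood at 10.0 RPKM in the Ikzf1 KO library S12, against 10.8 to 11.0 in the other 3. Ndufv1 stood at 47.9 RPKM in the Cre only library S19, against 40.8 to 41.8 in the other 3.

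The effect of losing Ikzf1 differed between cells with and without Ikzf3, by the interaction term, for 1 member and 6 mitochondrial DNA genes (limma adjusted p below 0.05). The difference on the log2 scale was -2.28 for Cox7a1. It was 2.71 for mt-Cytb, 1.85 for mt-Nd1, 2.45 for mt-Nd2, 2.58 for mt-Nd4, 2.28 for mt-Nd5 and 2.39 for mt-Nd6.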

How the results depend on the processing

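No paired analysis was possible because the columns carry no replicate numbers. Members called are given in the order Ikzf1 KO, Ikzf3 KO and DKO against Cre only, DKO against Ikzf1 KO, DKO against Ikzf3 KO, and the departure from the sum of both deletions, which were 0, 4, 5, 3, 5 and 1. They were 1, 9, 16, 3, 8 and 1 with quantile normalization, beside 6.82%, 13.9%, 19.1%, 8.51%, 21.4% and 6.81% of all genes. With array weights they were 22, 9, 30, 10, 6 and 4, beside 37.3%, 21.9%, 30.5%, 20.7%, 18.4% and 14.4%. Fitting each pair of groups alone, the first 5 were 8, 1, 11, 6 and 1, beside 20%, 4.47%, 22.4%, 17.7% and 6.76%. Without S3 and S4 they were 2, 2, 29, 11, 4 and 2, beside 17.2%, 9.7%, 36.9%, 21.5%, 19.8% and 10.2%. Without S16 and S17 they were 0, 0, 3, 3, 4 and 1, beside 3.67%, 5.56%, 10.9%, 7.08%, 17.8% and 4.42%. Without S18 and S19 they were 0, 0, 2, 3, 4 and 0, beside 5.89%, 7.42%, 13.6%, 7.32%, 18.5% and 5.97%. With a pseudocount of 1 the count for DKO against Cre only was 3, beside 18.3%. With the length trend removed they were 0, 7, 10, 2, 8 and 1, beside 7.06%, 15%, 19.9%, 8.01%, 21.1% and 7.17%. Leaving out 1 library at a time gave 0 throughout for Ikzf1 KO, beside 3.31% (S14) to 8.25% (S4) of all genes. For Ikzf3 KO it gave 0 (S4, S16, S17, S18 or S19), beside 8.22%, 8.57%, 8.32%, 8.44% and 10.3%, to 20 (S1), beside 29.9%. For DKO against Cre only it gave 2 (S6 or S18), beside 9.8% and 12.8%, to 13 (S4), beside 23.1%. Against Ikzf1 KO it gave 0 (S6, S12, S13 or S14), beside 3.36%, 4.21%, 4.92% and 4.53%, to 3, beside 6.65% (S16) to 11.3% (S4). Against Ikzf3 KO it gave 2 (S6) to 15 (S1), beside 11.7% and 30.8%. For the departure it gave 0 (S6) to 2 (S4), beside 3.45% and 7.27%. The cause was not tested.

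Of 1002 alternative complex medians 11 moved by more than the spread, and medians near zero could change sign. Complex II had a median of 0.2641 in Ikzf1 KO and 0.2262 in DKO against Cre only without S18 and S19, and with array weights 0.2856 in DKO against Cre only and 0.0743 against Ikzf1 KO. Complex III in Ikzf3 KO had -0.0142 without S18 and S19, -0.0133 with the length trend removed, and -0.0087 (S4) to 0.2274 (S16) with 1 library left out. Complex V in DKO against Ikzf3 KO had 0.1657 with array weights and -0.2082 (S1) to 0.1305 (S4) with 1 left out. The complex III departure ran from -0.2447 (S6) to 0.1282 (S5). No called gene changed direction. Depth limits Cox6a2 above all, and 6 tested members had under 100 reads in some library.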
